A study of Mus musculus with 12 samples.

Results

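A set of 10 genes of iron and heme handling were followed through 12 mouse brain RNA sequencing libraries: the uptake genes Tfrc, Slc11a2, Steap3 and Steap2, the ferritin genes Fth1 and Ftl1, the iron exporter gene Slc40a1, the heme oxygenase gene Hmox1, and the heme-binding protein genes Hebp1 and Hebp2. They were chosen by name, 10 of the 41388 genes counted in each library, and all 10 passed the filter on low counts. Hebp2 and Steap3 were picked from the values of KO against WT astrocytes themselves. Every value of the 10 genes in that contrast is therefore a description and carries no test. The same holds for these 2 genes in the interaction of that contrast with the fraction. The libraries came from 8 mice with Bmal fl/fl alleles (Bmal1, the gene symbol Arntl) that were positive (KO) or negative (WT) for CreERT2 driven by the promoter of Aldh1l1, an astrocyte gene. All 8, the WT mice included, were dosed with tamoxifen at 2 months of age (2 mg daily, 5 days) and were 20 months old at brain collection. Cells bound by ACSA-2 beads were sequenced as astrocytes (4 KO and 4 WT mice), and unbound cells of 2 of the KO and 2 of the WT mice as flowthrough, a mixture of the remaining brain cells.

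Cells take up iron bound to transferrin through the transferrin receptor, reduce it with STEAP metalloreductases, carry it out of the endosome through the transporter DMT1, store it in ferritin and release it through ferroportin. Heme, the iron porphyrin of hemoglobin and many enzymes, is broken down by heme oxygenases, which return its iron to the cell. In the brain, ferritin is abundant in glia, microglia take up and recycle iron, and several of these genes are controlled after transcription: when iron is scarce, iron regulatory proteins bind a hairpin in the mRNA, the iron-responsive element, which blocks translation from a 5′ UTR and protects the mRNA from decay in a 3′ UTR.

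The hairpins are shown because they are the sequence feature that several of the 10 genes share. Transcripts of GENCODE M21 (GRCm38) were searched for a bulged C, a stem of 5 pairs (G-U allowed) and a loop of 6 bases that begins with CAGTG and does not end in G. A match lay in a UTR of 4 of the 10 genes, against 0.562% of 21901 protein-coding genes. Several of the 10 were already known for this element, so this count is a description and nothing is read from it. Each line gives 29 bases in the direction of the transcript with the loop in capitals.
Fth1: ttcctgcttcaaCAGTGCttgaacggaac
Ftl1: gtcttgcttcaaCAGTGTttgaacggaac
Slc40a1: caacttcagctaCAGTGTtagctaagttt
Tfrc, most upstream of 4: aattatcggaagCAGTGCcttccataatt
The first of these lies at chr19:9982732-9982760 (plus strand), that of Ftl1 at chr7:45459779-45459807 (minus strand) and that of Slc40a1 at chr1:45925465-45925493 (minus strand), all in a 5′ UTR. The Tfrc hairpin shown lies at chr16:32631219-32631247 (plus strand), and all 4 of that gene are in the 3′ UTR. Hebp1, Hebp2, Steap3, Steap2, Hmox1 and Slc11a2 held no match to this pattern in a UTR. Slc11a2 is known for a 3′ UTR element with an interrupted stem, which the pattern does not allow.

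Promoter sequence is shown for the pair of heme-binding protein genes, whose ratio differed between KO and WT astrocytes in the values below. BMAL1 with CLOCK binds the E-box CACGTG, which reads the same on both strands. RefSeq promoters (GRCm38.p6, 250 bases before to 50 bases after a start, 300 in all) were listed for 7 of the 10 genes, in 14 entries. Hmox1, Slc40a1 and Slc11a2 had no entry and were not searched. CACGTG occurred in 1 of the 7 genes, Hebp1, and in 7.15% of all 32851 promoters. A gene counts where any of its entries matched, while shares of all promoters here are per entry, so the measures differ. The lines give the 100 bases before the start, 5′ to 3′ in the direction of the gene, with CACGTG in capitals.
Hebp1: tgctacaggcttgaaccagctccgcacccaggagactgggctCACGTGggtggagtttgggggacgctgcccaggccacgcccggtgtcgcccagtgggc
Hebp2: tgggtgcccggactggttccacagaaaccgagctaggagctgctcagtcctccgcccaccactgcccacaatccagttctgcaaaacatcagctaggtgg
They lie at chr6:135168216-135168315 and chr10:18546077-18546176, both on the minus strand. The Hebp1 match began at -58 from the start. Hebp2 and the 4 entries of Steap3 held no CACGTG in the window. The looser CANNTG, which includes CACGTG, was found in 4 of the 7 genes and in 72.3% of all promoters, and TGACNNNGC, the core of the antioxidant response element, searched on both strands, in Steap2 alone of the 7 and in 12.4% of all.

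Total counts per library were 38.7 to 51.6 M (M, a factor of 1e+06). Levels are given as counts per M counts (CPM), and the lowest level of Hebp2, 4.99 CPM, rested on 252 counts. Arntl did not fall with the KO label (401, 428, 645 and 628 counts in KO astrocytes of mice 60, 62, 73 and 132, against 360, 239, 242 and 374 in WT astrocytes of mice 56, 57, 64 and 78), and KO and WT below mean the labels. In CPM, Arntl was higher in every KO than in every WT astrocyte library (log2 fold change 0.66 ± 0.19), not called by edgeR (adjusted p = 0.473). The count sums all exons, and whether it sees the deletion is not known. Each astrocyte group held 1 library of female type (KO 73 and WT 78), and all flowthrough libraries were of male type. The summed level of 15 astrocyte markers was 13700 to 27370 CPM in astrocytes and 3982 to 10860 CPM in flowthrough. That of 12 microglia markers was 666 to 3277 and 12560 to 19810 CPM, highest among astrocyte libraries in KO 73. The captured fraction still held 20520 to 38620 CPM of 12 oligodendrocyte markers, against 12520 to 29930 CPM in flowthrough. None of the genes of these 3 lists was at 0 in every library. In such bulk libraries, fewer cells of a type and less RNA per cell cannot be told apart.

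In KO against WT astrocytes, 1 of the 10 genes passed as higher (Hebp2) and 1 as lower (Steap3) at an adjusted p under 0.05 in edgeR's quasi-likelihood test, beside 0.232% of 18527 genes. The groups did not overlap for the same pair, beside 4.03% of all genes. Both genes were picked from this contrast, so nothing about the 10 is read from these counts. Among markers of other cells, 12 of 12 oligodendrocyte markers (median log2 fold change 0.76, summed level 24760 to 38620 CPM in KO and 20520 to 26730 CPM in WT), 12 of 12 microglia markers (0.55, 682 to 3277 and 666 to 1333 CPM) and 7 of 7 border macrophage markers (0.79, 43.4 to 309 and 34.9 to 110 CPM) lay above 0, as did 3 of 15 astrocyte markers (median -0.23). The summed levels of all 4 lists overlapped between KO and WT. KO 73 gave the highest microglia and border macrophage sums. In the other KO libraries these were 682 to 1223 and 43.4 to 92.8 CPM. Other lists were mixed: 7 of 7 choroid plexus, 4 of 4 neutrophil, 9 of 10 endothelial and 3 of 4 ependymal markers lay above 0. So did 3 of 5 oligodendrocyte precursor, 4 of 7 mural, 5 of 10 neuron and 2 of 7 red blood cell markers. Of all 18527 genes tested, 9409 lay above 0. With a covariate built from microglia, oligodendrocyte, endothelial and neuron markers, the KO minus WT value was 3.84 for Hebp2 and -1.52 for Steap3. Both come from the contrast that chose these genes, and the part of other cells in them was not tested. In flowthrough none of the 10 passed, beside 0.00476% of 20997 genes. There Hebp2 and Tfrc had an unadjusted p under 0.05 in edgeR, DESeq2 called 1 of the 10 (Hebp2) and limma-voom 0. The 2 KO and 2 WT flowthrough libraries did not overlap for 5 of the 10, higher in KO for Hebp2 and Tfrc and lower for Hebp1, Steap3 and Steap2, beside 33.6% of all genes. The flowthrough came from mice that also gave astrocytes, so these are not further animals.

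Whether the KO minus WT difference itself differed between the fractions was fitted as an interaction. None of the 10 passed, beside 0% of 20997 genes, of which 828 had an unadjusted p under 0.05 in edgeR. The 2 of the 10 among these 828 were Hebp2 and Steap3, whose interaction contains the astrocyte difference that chose them, so nothing is read from it. Neither DESeq2 nor limma-voom called any of the 10. Between astrocytes and flowthrough, averaged over the labels, 1 of the 10 was called higher in astrocytes (Hebp2), beside 24.8% of all genes. Called lower were 3 (Steap2, Hmox1 and Slc40a1), beside 24.4%. The KO astrocyte values that chose Hebp2 are part of this average, so its call is a description. Nothing particular to the 10 is read from these counts.

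**Figure D1:**
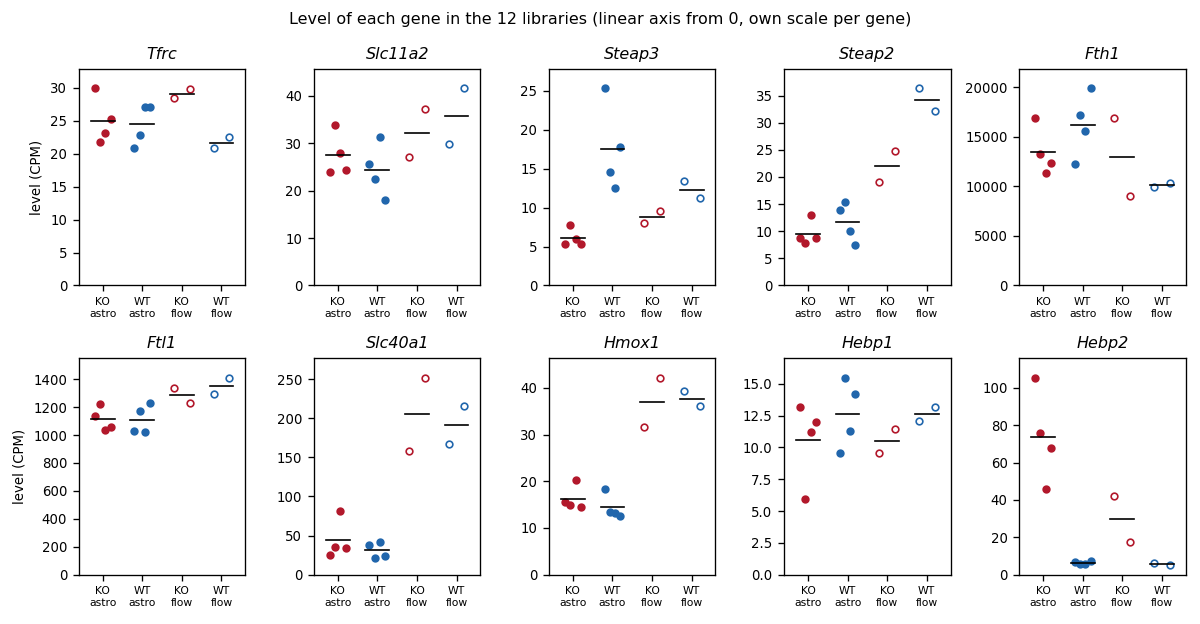
Level of each of the 10 genes (vertical axis, CPM, linear from 0, own scale per gene) in the 12 libraries by group, with each point 1 library, the line the group mean, filled points astrocytes and open points flowthrough. Hebp2 stands at 46.0 CPM or more in the 4 KO astrocyte libraries and at 7.08 or less in the 4 WT ones, and Slc40a1 and Hmox1 are higher in all 4 flowthrough libraries than in all 8 astrocyte libraries.

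Among the uptake genes, Tfrc, the transferrin receptor (ENSMUSG00000022797, chromosome 16, 32608920 to 32632794, plus strand, GRCm38), had overlapping levels in KO and WT astrocytes. It stood at 29.9, 21.8, 23.1 and 25.3 CPM in KO astrocytes of mice 60, 62, 73 and 132 and at 20.8, 22.8, 27.1 and 27.1 CPM in WT astrocytes of mice 56, 57, 64 and 78, orders of mice that hold for every gene below. Neither group stood above the other, and the log2 fold change was 0.04 ± 0.15 (standard error). In flowthrough Tfrc was 28.5 and 29.8 CPM in KO 60 and 132 and 20.8 and 22.5 CPM in WT 56 and 64. Both KO values lay above both WT values. Its log2 fold change was 0.43 ± 0.19, short of a call in edgeR (adjusted p = 1). Between the fractions Tfrc differed by -0.022 ± 0.12 (adjusted p = 0.889).

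Slc11a2 (ENSMUSG00000023030, chromosome 15, 100387898 to 100425072, minus strand) encodes DMT1, which moves ferrous iron across the endosomal membrane. It was 24.0, 33.9, 28.0 and 24.3 CPM in KO astrocytes and 25.5, 22.4, 31.4 and 18.0 CPM in WT astrocytes, overlapping groups with a log2 fold change of 0.19 ± 0.19. Flowthrough held 27.1 and 37.2 CPM in KO and 29.7 and 41.5 CPM in WT, also overlapping (-0.15 ± 0.28, adjusted p = 1 in edgeR). The astrocyte library was the lower one in all 4 mice that gave both fractions. Astrocytes minus flowthrough was -0.39 ± 0.17 (adjusted p = 0.0797 in edgeR), and with the mouse as a block it passed (-0.37 ± 0.11, adjusted p = 0.0309). A gene on the other strand, Gm5475, shares 402 bases of its exons, but took only 59 counts over the 12 libraries.

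Steap3 (ENSMUSG00000026389, chromosome 1, 120190757 to 120272705, minus strand) encodes the endosomal ferrireductase that works beside the transferrin receptor. It was 5.31, 7.75, 5.99 and 5.33 CPM in KO astrocytes and 25.3, 14.6, 12.6 and 17.7 CPM in WT astrocytes. The highest KO library lay below the lowest WT library, and KO was 2.87-fold lower (log2 fold change -1.52 ± 0.24), a value that chose the gene. Its call was lost in each of the 8 refits without 1 astrocyte library, which kept the log2 fold change between -1.65 and -1.29. These refits reuse the values that chose the gene.

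In flowthrough Steap3 was 8.02 and 9.54 CPM in KO and 13.4 and 11.2 CPM in WT. The KO values were again below the WT values. The difference was -0.49 ± 0.31 and was not called by edgeR (adjusted p = 1). The KO minus WT difference in astrocytes less that in flowthrough was -1.04 ± 0.38, which contains the value that chose the gene. Averaged over the labels, no difference in Steap3 between the fractions was called (-0.0082 ± 0.19, adjusted p = 0.976). This average covers WT libraries with more Steap3 in astrocytes than in flowthrough (0.51, adjusted p = 0.207 in WT libraries only) and KO libraries with less (-0.51, adjusted p = 0.184 in KO libraries only).

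Steap2 (ENSMUSG00000015653, chromosome 5, 5664831 to 5694578, minus strand), another metalloreductase of the family, had a different distribution. Astrocytes held 8.72, 7.89, 12.9 and 8.69 CPM in KO and 13.8, 15.3, 10.1 and 7.46 CPM in WT, which overlapped (-0.28 ± 0.25). Flowthrough held 19.0 and 24.9 CPM in KO and 36.3 and 32.2 CPM in WT. Every flowthrough library was above every astrocyte library. Astrocytes minus flowthrough was -1.38 ± 0.20 (adjusted p = 2.18e-04 in edgeR), lower in 4 of 4 mice, and passed under all 27 alternatives. In flowthrough the KO values were below the WT values, and the difference of -0.64 ± 0.33 was not called by edgeR (adjusted p = 1). The 7 choroid plexus markers followed a similar order there, 19340 and 23340 CPM in KO and 33960 and 40150 CPM in WT flowthrough, against 1804 to 9326 CPM in astrocytes with the highest in KO 73, and their part in the Steap2 values was not tested.

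**Figure D2:**
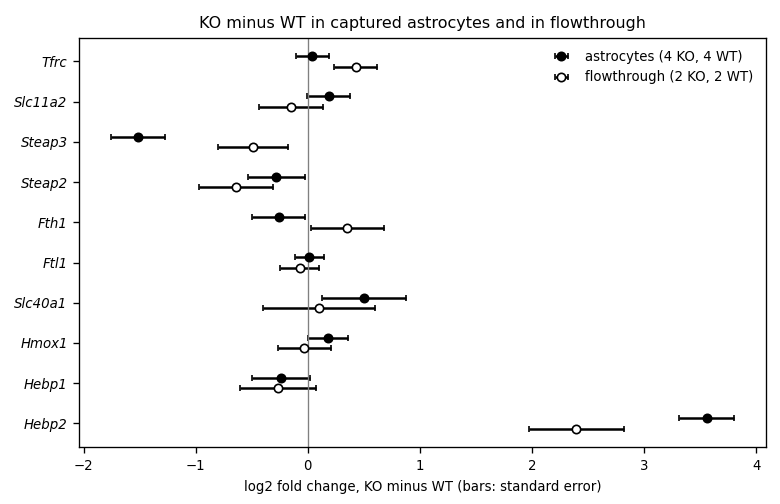
Log2 fold change of KO minus WT (horizontal axis) for the 10 genes in astrocytes (filled, 4 KO and 4 WT libraries) and in flowthrough (open, 2 and 2), with bars of 1 standard error. Hebp2 lies at 3.56 in astrocytes and 2.39 in flowthrough, Steap3 at -1.52 and -0.49, and the other 8 genes lie between -0.64 and 0.50 in both.

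Storage rests on ferritin, a shell of heavy chains, which oxidise iron, and light chains, which help to lay down the mineral. Fth1, the heavy chain (ENSMUSG00000024661, chromosome 19, 9982703 to 9985092, plus strand), was 16880, 13240, 11400 and 12370 CPM in KO astrocytes and 12230, 17230, 15620 and 19890 CPM in WT astrocytes. The groups overlapped (log2 fold change -0.26 ± 0.24). In flowthrough KO 60 stood apart at 16880 CPM, while KO 132 had 9006 CPM and WT 56 and 64 had 9893 and 10390 CPM. The difference of 0.35 ± 0.33 was not called by edgeR (adjusted p = 1), and without the KO 60 flowthrough library it was -0.17. That library also had the highest astrocyte marker sum among flowthrough libraries, 10860 CPM against 3982 to 5769 CPM, and 29930 CPM of oligodendrocyte markers against 12520 to 15460 CPM. The part of these cells in its Fth1 level was not tested. Astrocytes minus flowthrough was 0.37 ± 0.20 (adjusted p = 0.153), higher in 3 of 4 mice.

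Ftl1, the light chain (ENSMUSG00000050708, chromosome 7, 45457944 to 45459884, minus strand), was the steadiest of the 10. It was 1139, 1226, 1037 and 1059 CPM in KO astrocytes and 1026, 1170, 1020 and 1228 CPM in WT astrocytes, and the log2 fold change was 0.014 ± 0.13. Flowthrough held 1337 and 1233 CPM in KO and 1295 and 1411 CPM in WT, overlapping values (-0.074 ± 0.17, adjusted p = 1 in edgeR). All 4 flowthrough libraries were above all 8 astrocyte libraries, though the KO 132 flowthrough library only by a small margin over WT 78 astrocytes. Astrocytes minus flowthrough was -0.24 ± 0.10 (adjusted p = 0.0716 in edgeR) and passed with the mouse as a block (-0.32 ± 0.094, adjusted p = 0.0238).

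Both ferritin values are uncertain, since reads of near-identical copies can be split: the pseudogene Ftl1-ps1 took 869 to 1684 counts per library and Fth-ps2 30 to 134. Per kilobase of exon, Fth1 was 22.9, 16.7, 17.0 and 18.1 times the level of Ftl1 in KO astrocytes and 18.4, 22.8, 23.7 and 25.1 times in WT astrocytes, so the groups overlapped. In flowthrough the ratio was 19.5 in KO 60, 11.3 in KO 132, 11.8 in WT 56 and 11.4 in WT 64. KO 60 again stood apart from the other flowthrough libraries.

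Slc40a1 (ENSMUSG00000025993, chromosome 1, 45908068 to 45926523, minus strand) encodes ferroportin, the cellular iron exporter, and showed the widest gap between the fractions of the 10. Astrocytes held 24.9, 35.5, 81.7 and 34.6 CPM in KO and 38.3, 21.2, 41.8 and 24.2 CPM in WT. Flowthrough held 158.5 and 252 CPM in KO and 166.9 and 216.4 CPM in WT. Every flowthrough library lay above every astrocyte library, and within each fraction KO and WT overlapped. Astrocytes minus flowthrough was -2.41 ± 0.30 (5.33-fold lower, adjusted p = 9.06e-05 in edgeR), lower in 4 of 4 mice, and passed under all 27 alternatives.

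The KO minus WT difference of Slc40a1 was 0.50 ± 0.37 in astrocytes and rested on 1 library, KO 73: without it the value was 0.013. KO 73 also had the highest microglia marker sum of the astrocyte libraries, 3277 CPM against 666 to 1333 CPM in the other 7. In flowthrough the difference was 0.10 ± 0.50 (adjusted p = 1). All 12 microglia markers were lower in astrocytes than in flowthrough, with a median log2 fold change of -3.67, and with the same covariate of cell markers the Slc40a1 difference between fractions was -1.55 (adjusted p = 0.00987). The part of microglia alone was not tested.

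Hmox1, the inducible heme oxygenase (ENSMUSG00000005413), was likewise higher in flowthrough. It was 15.6, 14.8, 20.3 and 14.4 CPM in KO astrocytes and 18.4, 13.4, 13.3 and 12.7 CPM in WT astrocytes, which overlapped (0.18 ± 0.18). In flowthrough it was 31.6 and 42.2 CPM in KO and 39.3 and 36.0 CPM in WT, overlapping again (-0.031 ± 0.23, adjusted p = 1 in edgeR). No astrocyte library reached the lowest flowthrough library. Astrocytes minus flowthrough was -1.28 ± 0.14 (2.43-fold lower, adjusted p = 4.45e-05), lower in 4 of 4 mice, and passed under all 27 alternatives.

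**Figure D3:**
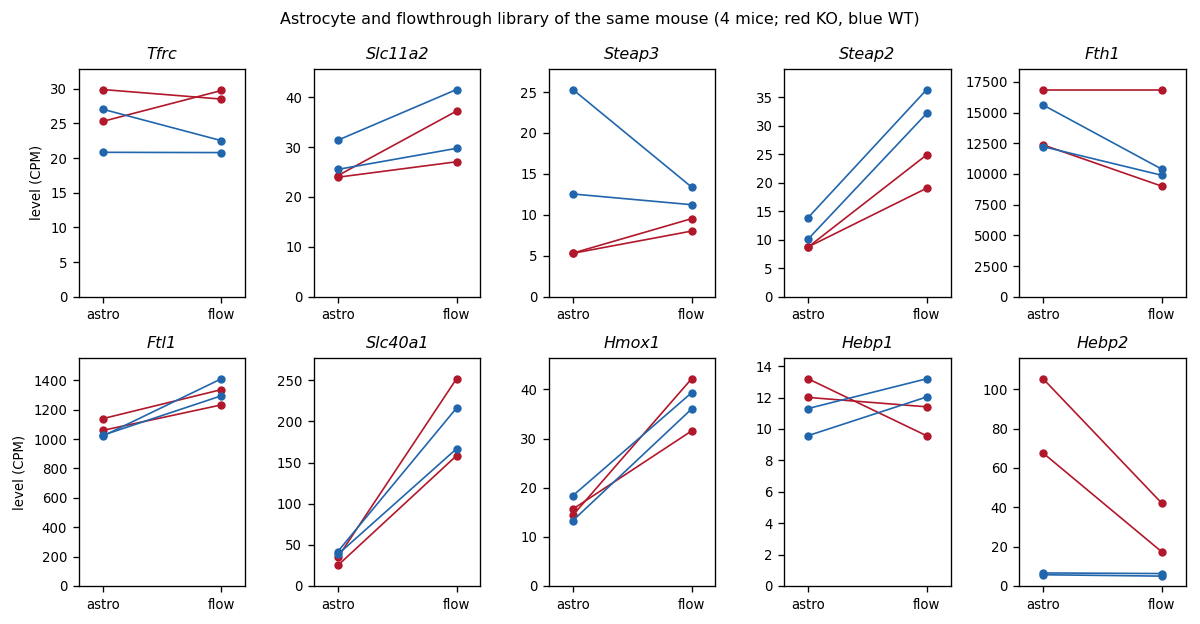
Level of the 10 genes (vertical axis, CPM, linear from 0) in the astrocyte and flowthrough library of the same mouse, joined by a line, for KO mice 60 and 132 (red) and WT mice 56 and 64 (blue). Slc40a1, Hmox1, Steap2, Slc11a2 and Ftl1 are lower in the astrocyte library of all 4 mice, and Hebp2 is higher in it in all 4.

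The heme-binding proteins HEBP1 and HEBP2 form a small family of soluble proteins; a peptide cut from HEBP1 acts as a chemoattractant. Hebp1 (ENSMUSG00000042770, chromosome 6, 135137519 to 135168215, minus strand) was 13.2, 5.97, 11.2 and 12.0 CPM in KO astrocytes and 9.57, 15.5, 11.3 and 14.2 CPM in WT astrocytes. The KO 62 library was the lowest of all 12, and the groups overlapped (-0.24 ± 0.26). In flowthrough it was 9.56 and 11.4 CPM in KO and 12.0 and 13.2 CPM in WT. The KO values lay below the WT values by -0.27 ± 0.34 on the log2 scale, not called by edgeR (adjusted p = 1). The fractions differed by 0.0089 ± 0.21 (adjusted p = 0.976).

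Hebp2 (ENSMUSG00000019853, chromosome 10, 18540123 to 18546076, minus strand) was the gene with the largest difference between KO and WT of the 10. KO astrocytes held 105.4, 75.6, 46.0 and 67.6 CPM (4448, 3192, 2459 and 3198 counts) and WT astrocytes 6.60, 5.78, 5.70 and 7.08 CPM (316, 197, 256 and 301 counts). The lowest KO library lay far above the highest WT library, and KO was 11.8-fold higher (log2 fold change 3.56 ± 0.25), a value that chose the gene. The 4 WT libraries were within a narrow range, and the KO libraries spread from 46.0 to 105.4 CPM.

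In flowthrough Hebp2 was 42.0 CPM in KO 60 and 17.3 CPM in KO 132, against 6.30 and 4.99 CPM in WT 56 and 64. Both KO libraries lay above both WT libraries, and edgeR gave 2.39 ± 0.42 on the log2 scale without a call (adjusted p = 0.445). It passed in DESeq2 (2.39, adjusted p = 9.11e-05), and over the 23 alternatives the adjusted p ran from 9.11e-05 to 1. Without the KO 132 flowthrough library, which leaves KO 60 as the only KO one, the value was 2.90. The KO minus WT difference in astrocytes less that in flowthrough was 1.16 ± 0.50, and it too contains the value that chose the gene.

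The KO 60 library, with the higher Hebp2 level of the KO flowthrough pair, also held more astrocyte marker RNA (10860 against 5250 CPM in KO 132). Per Aldh1l1 CPM, Hebp2 was 0.513 in KO 60 and 0.316 in KO 132 flowthrough, against 0.553, 0.240, 0.581 and 0.400 in KO astrocytes. In WT the same ratio was 0.106 and 0.0784 in flowthrough and 0.0259 to 0.0308 in astrocytes. The KO flowthrough ratios thus fell within the range of the KO astrocyte ratios, and the WT flowthrough ratios above that of WT astrocytes. The part of astrocytes left in the flowthrough was not tested.

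Averaged over the labels, Hebp2 was higher in astrocytes than in flowthrough (0.73 ± 0.25, adjusted p = 0.0316 in edgeR), higher in 4 of 4 mice. This average contains the KO astrocyte values that chose the gene. Its call held under 17 of the 27 alternatives. The difference was 0.15 in WT libraries only (adjusted p = 0.597) and 1.31 in KO libraries only (adjusted p = 0.0864). The call was lost in 6 of the 12 refits without 1 library, those without astrocyte KO 60, WT 56 or WT 78 or flowthrough KO 132, WT 56 or WT 64, and in the fit with the covariate of cell markers (0.25, adjusted p = 0.709).

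Per kilobase of exon, Hebp2 in WT astrocytes was the lesser gene of its family, at 0.383, 0.207, 0.280 and 0.277 times the level of Hebp1. In KO astrocytes it was 4.44, 7.04, 2.28 and 3.13 times the level of Hebp1, so the order of the pair was turned in all 4. Flowthrough showed 2.44 in KO 60 and 0.842 in KO 132, against 0.291 and 0.210 in WT. The ratio within the Steap pair was nearer in KO and WT: Steap3 was 3.89, 2.02, 2.65 and 5.05 times the level of Steap2 in WT astrocytes and 1.29, 2.09, 0.985 and 1.3 times in KO astrocytes, and 0.743 to 0.895 times in the 4 flowthrough libraries. These ratios use the values that chose Hebp2 and Steap3.

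**Figure D4:**
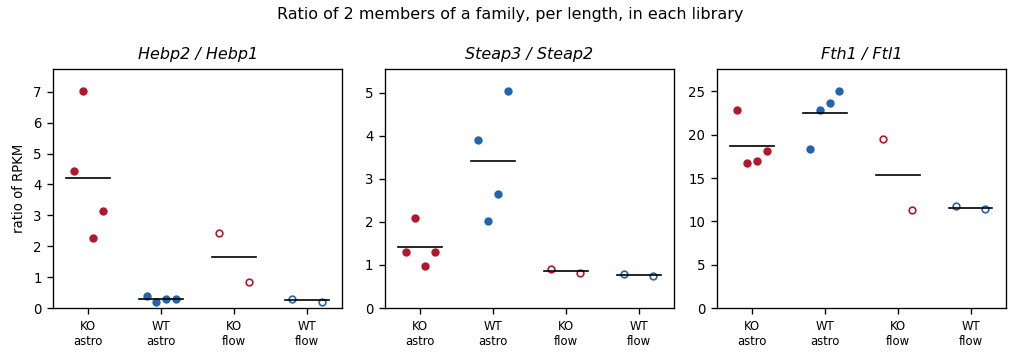
Ratio of RPKM (CPM per kilobase of exon, vertical axis, linear from 0) within 3 pairs of related genes, with each point 1 library and the line the group mean. Hebp2 per Hebp1 is 2.28 or more in KO astrocytes and 0.383 or less in WT astrocytes, and Fth1 per Ftl1 overlaps between KO and WT astrocytes.

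On the same per-kilobase scale, the order of the 10 in WT astrocytes (mean ± SD, n = 4) began with Fth1 at 18760 ± 3696 RPKM and Ftl1 at 829 ± 78 RPKM. Hebp1 followed at 11.9 ± 2.5 RPKM, and then Hmox1 at 6.68 ± 1.2 RPKM. The next 5, Tfrc (3.95 ± 0.51), Slc11a2 (3.83 ± 0.89), Slc40a1 (3.48 ± 1.1), Hebp2 (3.29 ± 0.35) and Steap3 (3.07 ± 0.98 RPKM), were neighbours whose order was not tested. Steap2 was lowest at 0.962 ± 0.29 RPKM. In KO astrocytes Hebp2, at 38.6 ± 13 RPKM, followed the ferritins. In WT flowthrough Slc40a1, at 21.3 ± 3.9 RPKM, followed the ferritins, ahead of Hmox1 at 17.4 ± 1.1 and Hebp1 at 11.9 ± 0.77 RPKM (n = 2).

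The wider pathway was read from a list of 87 genes in 9 roles, the 10 genes included. Of the other 77, none was called in KO against WT astrocytes (74 tested, 1 with an unadjusted p under 0.05), in flowthrough (75 tested, 4 unadjusted) or in the interaction (75 tested, 3 unadjusted), in edgeR or under any of the alternatives, DESeq2 and limma-voom included. Their median log2 fold change was 0.030 in astrocytes and -0.080 in flowthrough, against 0.0044 and 0.037 over all genes tested. The 3 with the smallest p in astrocytes were Cybrd1, a plasma membrane ferrireductase (0.66 ± 0.26, adjusted p = 0.815), Hmox2, the constitutive heme oxygenase (0.31 ± 0.14, adjusted p = 0.931), and Trf, transferrin (0.91 ± 0.42, adjusted p = 0.931). Trf was 139.4 CPM in KO 73 and 27.2 to 54.3 CPM in the other 7 astrocyte libraries. In flowthrough they were Tfr2, the second transferrin receptor (-0.84 ± 0.36), Bmpr2, a BMP receptor (0.54 ± 0.24), and Bmp2, a BMP ligand (1.66 ± 0.75), each with an adjusted p of 1.

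Between the fractions, 75 of the other 77 genes were tested, and 14 were called higher and 27 lower in astrocytes, with a median of -0.12 against 0.0040 over all genes. Of all 20997 genes 24.8% were called higher and 24.4% lower, the background for each role below (the roles include the 10 genes), and no role was tested against it. Mitochondrial genes took 12.6% to 21.4% of counts in astrocyte libraries and 4.66% to 12.7% in flowthrough, a difference whose part in the values below was not tested. All 4 heme breakdown genes were lower in astrocytes: Hmox1, the biliverdin reductases Blvrb (-0.68 ± 0.099, adjusted p = 2.57e-04) and Blvra (-0.74 ± 0.11, 3.72e-04), and Hmox2 (-0.46 ± 0.12, 0.00729). Of 14 heme synthesis genes, 8 were lower and 1 higher, with the smallest p for Tspo, a mitochondrial outer membrane protein abundant in microglia (-1.55 ± 0.16, 3.80e-05), Tmem14c, a mitochondrial carrier of heme synthesis (-0.71 ± 0.081, 6.03e-05), and Alas1, the housekeeping first enzyme (-1.18 ± 0.15, 9.22e-05). The median of the role was -0.61. Alas2 of this role is also a red blood cell marker (-4.24 ± 0.96, 0.00360), and the 7 markers of that list summed to 7.62 to 710 CPM in astrocytes and 1998 to 14070 CPM in flowthrough. The part of red blood cells and of microglia, whose 12 markers were all lower in astrocytes, in the heme genes was not tested.

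Of 18 mitochondrial iron genes, 7 were higher and 2 lower, with a median of 0.26. The importer Slc25a37 was lower (-1.56 ± 0.16, adjusted p = 3.31e-05), and the cysteine desulfurase Nfs1 (0.52 ± 0.10, 0.00169) and the outer membrane iron-sulfur protein Cisd1 (0.53 ± 0.11, 0.00194) were higher. Heme-binding genes had 3 of 6 higher and 1 lower, Cygb, cytoglobin (1.48 ± 0.32, 0.00258), and Ngb, neuroglobin (1.25 ± 0.33, 0.00902), among the higher ones. The neuron markers, to whose cells neuroglobin belongs, were also higher in astrocytes than in flowthrough, 10 of 10 with a median of 1.58, and their part was not tested.

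Uptake genes had 5 of 14 lower and none higher, with the smallest p for Steap1, a STEAP relative (-2.56 ± 0.34, adjusted p = 1.36e-04), Steap2, and Lcn2, a siderophore-binding protein of neutrophils and reactive glia (-4.15 ± 0.90, 0.00289). The 5 neutrophil markers were all lower in astrocytes too, at 2.80 to 190.9 CPM in sum against 2252 to 8136 CPM in flowthrough, and their part in the Lcn2 difference was not tested. Of 3 export genes, Slc40a1 was lower, Heph, hephaestin, a ferroxidase, was higher (1.42 ± 0.18, adjusted p = 1.08e-04), and Cp, ceruloplasmin, did not pass (-0.56 ± 0.38, 0.243) but was called lower with the mouse as a block (-0.55 ± 0.12, adjusted p = 0.00695). Storage had 2 of 5 lower, Ncoa4, the receptor that delivers ferritin to lysosomes (-0.44 ± 0.10, 0.00372), and the iron chaperone Pcbp2 (-0.25 ± 0.097, 0.0474), whose call was lost with the mouse as a block (adjusted p = 0.0507).

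Among 13 regulators tested, 4 were lower and 1 higher. The smallest p belonged to Hfe, the hemochromatosis protein (-2.20 ± 0.21, adjusted p = 2.63e-05), Nfe2l2, the stress factor NRF2 (-1.25 ± 0.14, 4.66e-05), and Bach1, the heme-sensing repressor of Hmox1 (-1.60 ± 0.23, 2.44e-04). Of 8 heme transport genes, 2 were higher and 3 lower: Hpx, hemopexin (1.53 ± 0.25, 5.59e-04), and Slc48a1, an endosomal heme transporter (0.95 ± 0.16, 7.13e-04), were higher, and Hp, haptoglobin (-4.45 ± 0.76, 6.64e-04), was lower. These counts rest on edgeR over all 12 libraries. With the mouse as a block, 15 of the other list genes were called higher and 30 lower, 7 calls gained and 3 lost. By role, where the 10 genes are counted too, the block moved uptake from 5 to 8 lower and from 0 to 1 higher. Heme transport went from 3 to 5 lower, export from 1 to 2 lower and regulation from 4 to 3 lower. Storage and mitochondrial iron each gained 1 call and lost 1. Over the alternatives the number of the other list genes called ran from 14, with KO libraries only, to 48, against 41.

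**Figure D5:**
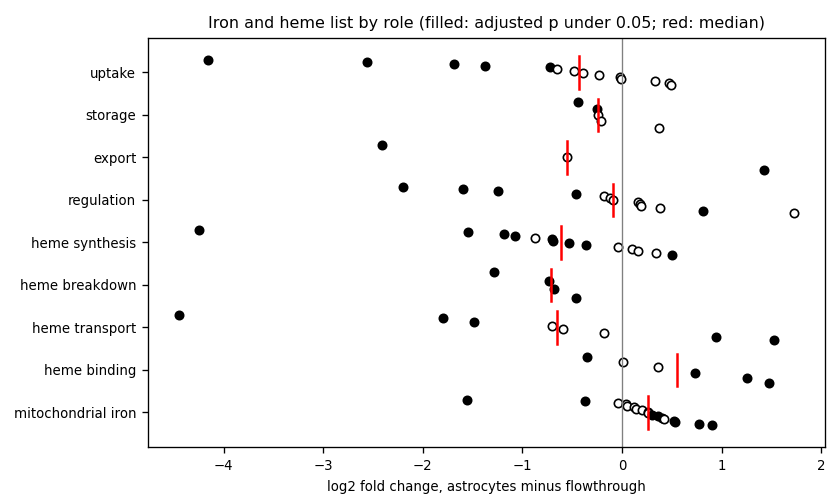
Log2 fold change of astrocytes minus flowthrough (horizontal axis) for the 85 tested genes of the iron and heme list by role, with each point 1 gene, filled where the adjusted p is under 0.05, and a red line at the median of the role. The 4 heme breakdown genes lie below 0 and are all filled, and 15 of the 18 mitochondrial iron genes lie above 0.

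Which genes ran most like each of the 10 over the 12 libraries was read from Pearson's r of log2 CPM among 9656 genes with a mean log2 CPM of at least 3. The libraries share the labels, the fractions and the mice, so r is a description. For Hebp2 these were Diaph3 (0.932), Cmpk2 (0.924) and D16Ertd472e (0.908), and for Steap3 they were Retsat (0.887), Chil1 (0.876) and Nt5c2 (0.847). The genes that differed by fraction had closer companions: Slc31a2 (0.998), C5ar1 (0.998) and Themis2 (0.997) for Slc40a1, Alg8 (0.990), Heatr5a (0.989) and Rhog (0.989) for Hmox1, and Sulf1 (0.965), Htr2c (0.959) and Cep162 (0.955) for Steap2.

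For Slc11a2 the nearest were Cnnm4 (0.952), Lman2 (0.940) and Zc3hav1 (0.937), for Ftl1 they were Arhgdia (0.939), Mrtfa (0.931) and Hspb8 (0.917), and for Fth1 they were Ubfd1 (0.938), Ulk1 (0.937) and Trp53inp2 (0.936). Hebp1 ran most like Golph3 (0.901), Ergic1 (0.888) and Tk2 (0.856), and Tfrc most like Ykt6 (0.882), Nsd1 (0.868) and Gtf2a2 (0.828). None of the 30 genes named in this way is on the iron and heme list.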

How the data were processed

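Total RNA was amplified with a SMARTer kit, per the labels' protocols. Per the file headers, each deposited table lists 41388 genes with a raw count, a CPM and an RPKM. The deposited CPM is the count per 1e+06 of the library total and the deposited RPKM is that per kilobase of summed exon length, checked on the files; only counts were tested. The submitters' processing notes name STAR 2.5.1a, featureCounts 1.4.6-p5 of Subread, and GRCm38. Strand setting and treatment of multi-mapping reads: not given in the sources used here, which leaves near-identical and overlapping genes uncertain. Symbols matched 40254 gene identifiers.

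The test was that of edgeR 4.0.16 under R 4.3.3 on counts (quasi-likelihood, two-sided, TMM, filterByExpr by group, Benjamini-Hochberg over all genes tested; adjusted p under 0.05 is called). KO against WT astrocytes used the 8 astrocyte libraries, and the other contrasts all 12 with 4 group means. CPM in the text is TMM-scaled over the 12 libraries, RPKM is that CPM per kilobase, and log2 CPM used a prior count of 2. The fits were tested on simulated counts. A count of 3, taken as the floor, is 0.0582 to 0.0775 CPM; floors cover counting error only. No source says more of the replicates than the mouse number; they are separate mice.

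The mouse number pairs the fractions of 4 mice. Deviations from the group means of the paired libraries correlated at -0.0066 (mouse 132), 0.155 (56), 0.352 (60) and 0.251 (64). The blocked fit used these 8 libraries.

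The 10 genes, the iron and heme list, the marker lists and the alternatives were chosen with earlier results of these data known. Named besides the 10 are, in each of the 2 KO against WT contrasts, the 3 other list genes with the smallest p; per role, up to 3 with the smallest p between fractions; and per gene the 3 with the highest r. Arntl, Aldh1l1 and ferritin pseudogenes served as checks. Of the list, Ftmt and Hamp, failed the filter in both fits, and Abcb6 in the astrocyte fit. Alternatives were RLE or library size scaling, TMM without the 20 most abundant genes, no filter, a CPM of at least 1 in 2 libraries, DESeq2 1.42.0, limma-voom (limma 3.58.1), an adjusted p under 0.1, a covariate for non-astrocyte RNA, the mouse as a block, other library sets, and each library left out.

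Summed CPM of the other marker lists in astrocyte and flowthrough libraries was 25.2 to 35.3 and 22.2 to 30.3 for oligodendrocyte precursors, 312 to 972 and 889 to 1810 for endothelial cells, 296 to 834 and 654 to 778 for mural cells, 1410 to 3090 and 473 to 1280 for neurons, 34.9 to 309 and 238 to 277 for border macrophages, 35.2 to 629 and 185 to 512 for ependymal cells, and 7.62 to 710 and 2000 to 14100 for red blood cells.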

Additional observations from a re-analysis of the deposited data

Results flagged for a closer look

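Each of the 10 genes was checked for a library far from the other 3 of its astrocyte group (Dixon's test at its 95% critical value), 20 checks in all, of which chance flags about 1 in 20. In KO astrocytes Steap2 was 12.9 CPM in KO 73 and 7.89 to 8.72 CPM in the other 3. In WT astrocytes Hmox1 was 18.4 CPM in WT 56 and 12.7 to 13.4 CPM in the other 3.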

How the results depend on the processing

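Over the alternatives, all genes called ran from 12 to 184 in KO against WT astrocytes (43 as reported), 0 to 23 in flowthrough (1), 0 to 8 in the interaction (0) and 2818 to 12499 between fractions (10333). Hebp2 and Steap3 were picked from KO against WT astrocytes, so their calls there are a description. Of the 10 genes, those called in astrocytes fell from 2 to 1 with library size scaling, with limma-voom and without KO 73 and WT 78, and were 1 without each of the 8 astrocyte libraries (range 1 to 1), with Steap3 the one lost. In flowthrough, where a refit without 1 library leaves 1 of its label and is not counted here, they were 0 as reported and 1 with DESeq2. Between fractions they were 4, 7 in limma-voom with the mouse as a random block, and 3 to 5 over single libraries left out. The mouse block changed the calls of Slc11a2 and Ftl1, no other call of the 10, and 10 calls of the other list genes. Library size scaling shifted the median of all genes by 0.105 in the interaction and -0.147 between fractions. The promoter motif count moved from 1 gene (CACGTG) to 4 (CANNTG).

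None of the values that changed sign was past the threshold, as reported or under the alternative, and the cause was not tested. In astrocytes these were Hmox1 (-0.0031) and Slc40a1 (-0.089) without KO 73 and WT 78, and Slc40a1 (-0.23) with the covariate for non-astrocyte RNA. With that covariate Slc40a1 was -0.58 and Ftl1 0.045 in flowthrough, and Hebp1 -0.23 and Steap3 0.0022 between fractions. Between fractions Hebp1 was -0.0041 with RLE scaling, -0.15 with library size scaling, -0.015 with a CPM of at least 1, -0.0041 with DESeq2, -0.034 with limma-voom, -0.037 without KO 73 and WT 78, -0.015 with the mouse block and in the same 8 libraries unpaired, and -0.022 with the random block. Tfrc was 0.015 with the mouse block, 0.023 unpaired and 0.17 in WT libraries only, where Steap3 was 0.51. Over single libraries left out, sign changes fell within -0.060 to 0.10 for Tfrc and -0.033 to 0.064 for Ftl1 in astrocytes. In flowthrough they fell within -0.26 to 0.16 for Hmox1, -0.27 to 0.40 for Slc40a1, -0.40 to 0.11 for Slc11a2 and -0.17 to 0.74 for Fth1. Between fractions they fell within -0.070 to 0.11 for Hebp1, -0.15 to 0.059 for Steap3 and -0.070 to 0.0087 for Tfrc. With 2 flowthrough libraries per label, a lone library was taken to vary like the other groups.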

Other observations

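Alas2, the first enzyme of heme synthesis in red blood cell precursors, is on the iron and heme list, and the globin genes, whose product carries heme, were counted as red blood cell markers. Alas2 was 51.0 and 58.6 CPM in KO 60 and 132 flowthrough and 154.1 and 402.3 CPM in WT 56 and 64 flowthrough. Astrocytes held 0.616, 23.9, 1.63 and 2.47 CPM in KO 60, 62, 73 and 132 and 7.71, 1.73, 14.1 and 0.165 CPM in WT 56, 57, 64 and 78. Hba-a1, an alpha globin gene, was 484.8 and 562.2 CPM in KO and 1611 and 3786 CPM in WT flowthrough, and Hbb-bs, a beta globin gene, 950.2 and 959.1 against 2963 and 6179 CPM. Both KO flowthrough libraries lay below both WT libraries for all 3 genes, with log2 fold changes of -2.35 ± 1.6, -2.37 ± 1.7 and -2.26 ± 1.7 that edgeR did not call (adjusted p = 1 each). The 3 genes were chosen after their values were seen.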
